A study of Mus musculus with 24 samples.

Results

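The genes described here are 10 immediate early response genes of liver invariant natural killer T (LiNKT) cells, Egr1, Egr2, Egr3, Fos, Fosb, Jun, Junb, Nr4a1, Ier2 and Dusp1, out of 55401 genes in the count tables. They were chosen by their measured values in these same data, namely their counts, shares of positive cells and co-detection in SmartSeq2, the differentially methylated regions (DMRs) near them and the chromatin fragment ends at them. Their values between the groups are therefore given as a description, with no test. LiNKT cells are T cells of the liver with a semi-invariant receptor for lipids on CD1d, and were sorted from NOD mice as live cells that bind an αGalCer/CD1d tetramer. Treated mice received nanoparticles that carry αGalCer on CD1d (αGalCer/CD1d-NP), at 20 µg of protein per dose. Doses were given 2 times a week for 5 weeks from an age of 8 to 10 weeks. Cells of treated mice were taken 2 to 3 days after the last dose. The labels call all control mice untreated, whereas the methods also name controls given control nanoparticles (Cys-NPs), and the single-nucleus controls are elsewhere described as given vehicle. Against untreated mice, the lipid, the nanoparticle and the injections cannot be told apart, and untreated below is used as the labels use it. For SmartSeq2, which reads full-length RNA of cells sorted singly into wells, cells came from 3 untreated and 3 treated male mice aged 13 to 15 weeks. For the chromatin of single nuclei, 5 untreated males and 4 treated males of the same ages were used. For whole genome bisulfite sequencing, cells came from 7 untreated female mice of 17 weeks and 4 treated mice of 16 weeks, whose sex is not stated, and replicate samples that the study describes were merged into 1 value per group in the tables in a way that is not stated. Mice are not separated in the files, so that each group counts as 1 sample in each kind of data. Intervals below are exact 95% intervals of counting error in cells, barcodes or reads and say nothing about the spread between mice.

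Immediate early genes are transcribed within minutes of a signal, such as antigen receptor engagement, growth factors or cell stress, from factors already present in the cell, and their RNAs are short-lived. Egr1, Egr2 and Egr3 encode zinc-finger transcription factors, Fos, Fosb, Jun and Junb encode subunits of the dimeric factor AP-1, and Nr4a1 encodes the orphan nuclear receptor Nur77, which is widely used as a reporter of T cell receptor signalling. Ier2 encodes a small nuclear protein of the same early response. Dusp1 encodes a dual-specificity phosphatase that switches off MAP kinases, the enzymes that relay the inducing signal. In iNKT cells, Egr2 is also known for its part in thymic development. Cell isolation itself can induce these genes.

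The count tables hold 284 untreated and 282 treated cells, of which the 273 untreated and 251 treated cells with a sub-cluster label from the study were used, with 172559865 and 149084200 counts in all. Medians per cell were 635257 counts and 861 genes in untreated cells, and 599896 counts and 850 genes in treated cells. All 9 T and iNKT cell markers examined, among them Cd3e, Trac and Zbtb16, were read in both groups, and 0 of the 9 were past 2-fold between them. A read on any of 17 markers of hepatocytes, B cells, myeloid, endothelial or erythroid cells was found in 11 untreated cells (4.03%) and 37 treated cells (14.7%), and 13 treated cells had none of the T cell markers, all of them among those 37. The 4 myeloid markers summed to 0.0116 counts per 1000000 counts (CPM) without treatment and to 1812 CPM with it, of the 3 erythroid markers 3.46 and 543 CPM, of the 4 hepatocyte markers 0 and 82.3 CPM, of the 3 endothelial markers 1.05 and 18.5 CPM, and of the 3 B cell markers 0.0116 and 0 CPM. Lyz2, the leading myeloid marker, was at 0 in untreated cells, and Kdr, Stab2, Cd79b and Ms4a1 were at 0 in both groups. Values without the cells that carry such a marker are given below for the members' levels, the members read per cell and their co-detection. The other results below include these cells.

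The sequences just before the transcription start sites are shown first for 5 members, since the chromatin at these starts is compared below and the letters differ between genes that are often grouped together. Promoters of 7 of the 10 members matched the RefSeq table (build GRCm38.p6), and Egr1, Egr3 and Ier2 were not in it. The 250 bases before the start were searched on both strands for the CArG box bound by serum response factor, the cyclic AMP response element (CRE) TGACGTCA, its core TGACG, the AP-1 site TGANTCA, the EGR site GCGNGGGCG and the TATA box TATAAA. A CRE holds the core on each strand, so that these matches overlap. Capitals mark the matches, and all runs are written along the strand of the gene, up to the base before the start or before the first annotated transcript base.
Fos, chr12:85473640-85473889, plus strand: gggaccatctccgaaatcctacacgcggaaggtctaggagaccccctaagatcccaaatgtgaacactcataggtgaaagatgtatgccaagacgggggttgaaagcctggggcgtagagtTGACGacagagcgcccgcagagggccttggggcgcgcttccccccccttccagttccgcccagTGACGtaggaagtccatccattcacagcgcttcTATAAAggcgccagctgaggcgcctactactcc
Egr2, chr10:67537619-67537868, plus strand: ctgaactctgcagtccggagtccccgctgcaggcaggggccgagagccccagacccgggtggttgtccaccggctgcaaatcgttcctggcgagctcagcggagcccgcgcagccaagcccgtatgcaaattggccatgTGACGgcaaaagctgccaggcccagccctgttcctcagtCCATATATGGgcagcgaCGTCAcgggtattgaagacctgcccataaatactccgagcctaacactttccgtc
Nr4a1, chr15:101266596-101266845, plus strand: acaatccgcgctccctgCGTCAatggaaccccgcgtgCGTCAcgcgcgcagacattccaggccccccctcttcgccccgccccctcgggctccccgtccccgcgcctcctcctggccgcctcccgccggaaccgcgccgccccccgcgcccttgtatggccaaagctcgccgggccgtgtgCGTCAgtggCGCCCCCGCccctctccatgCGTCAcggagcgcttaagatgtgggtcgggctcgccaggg
Junb, chr8:84978749-84978998, minus strand: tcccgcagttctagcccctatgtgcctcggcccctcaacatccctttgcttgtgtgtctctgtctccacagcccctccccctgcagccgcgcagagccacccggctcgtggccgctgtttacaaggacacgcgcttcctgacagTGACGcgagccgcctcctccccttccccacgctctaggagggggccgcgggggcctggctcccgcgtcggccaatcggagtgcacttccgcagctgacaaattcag
Dusp1, chr17:26508520-26508722, minus strand: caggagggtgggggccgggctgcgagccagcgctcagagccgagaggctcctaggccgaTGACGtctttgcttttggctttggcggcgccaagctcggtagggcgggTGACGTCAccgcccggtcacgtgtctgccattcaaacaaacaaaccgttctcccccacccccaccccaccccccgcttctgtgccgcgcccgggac

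The core TGACG was present in 6 of the 7 promoters (Dusp1, Egr2, Fos, Fosb, Junb and Nr4a1), against 17.8% of 32851 promoters of the same length. Nr4a1 had 4 copies, at 233, 213, 69 and 40 bases before its start, all on the other strand. The whole CRE was found in Dusp1 alone of the 7, between 143 and 136 bases before its RefSeq start, which lies 47 bases past the end of the printed run, and in 1.55% of all promoters. Egr2 alone held a CArG box, between 72 and 63 bases before the start, against 1.47% of all promoters, and Fos alone a TATAAA box, 33 to 28 bases before the start, against 12.4%. The EGR site was present in Fosb and Nr4a1 (4.70% of all promoters) and the AP-1 site in 0 of the 7 (6.75%). The core, the CRE and the EGR site hold CpGs, and the shares over all promoters were not matched for CpG content. A match is a string of letters in this window and not a measured binding site. Sequence further from the start and other spellings of these sites were not searched, so a gene without a match here may still hold one.

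In SmartSeq2, 8 of the 10 members passed the filter on low values (at least 10 summed counts and a read in at least 5% of all cells), and each of the 8 had a lower CPM in the treated cells. Egr1, Fos, Jun, Junb and Dusp1, 5 of the 8, were at least 2-fold lower in treated cells and 0 were at least 2-fold higher, where 6.03% of the 4113 genes tested were at least 2-fold lower and 5.76% at least 2-fold higher. The members were chosen on this comparison, so the shares are set side by side only. The median log2 ratio (treated over untreated, with 1 CPM added to both) was -1.26 for the 8 members and -0.01 for all 4113 genes. Reads on the 10 members together made up 1.30% of the counts of untreated cells and 0.519% of those of treated cells. Reads carry no molecular identifiers and were amplified, so that a level counts reads and not molecules.

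**Figure D1:**
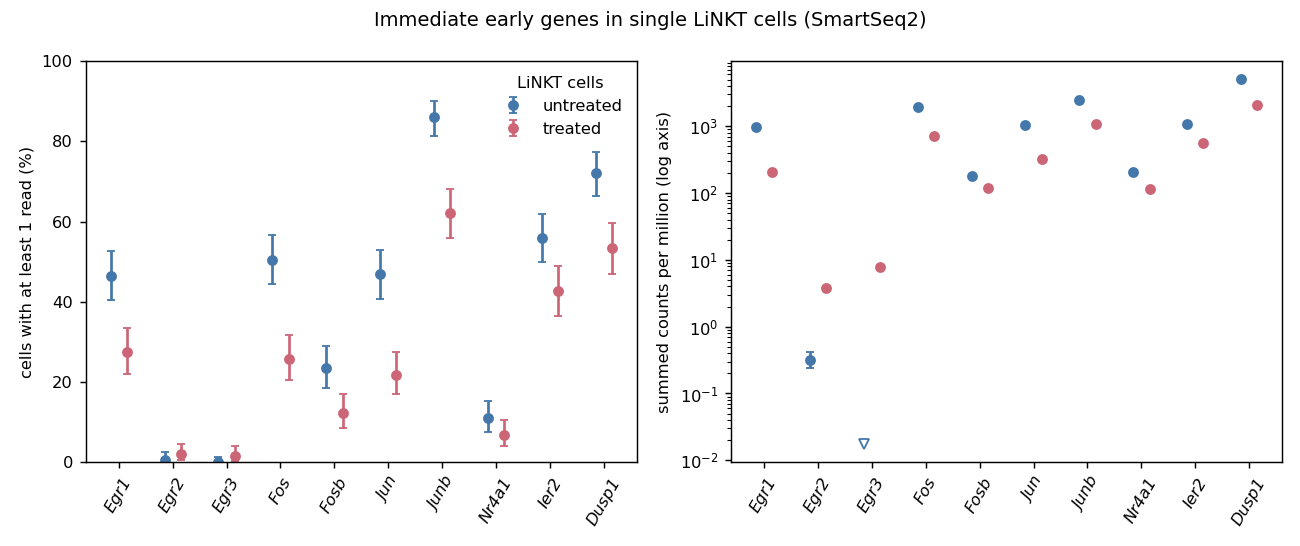
Left, percent of SmartSeq2 cells with at least 1 read on each gene, with exact binomial 95% intervals (273 untreated and 251 treated LiNKT cells). Right, summed CPM on a log axis with exact Poisson intervals, mostly smaller than the points. These intervals treat amplified reads as independent and hold no spread between cells. The open triangle marks the limit of 3 counts that a count of 0 allows for Egr3 in untreated cells. Untreated cells lie above treated cells for 8 genes in both panels, and Egr2 and Egr3 lie near 0%.

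Among the EGR factors, Egr1 had the largest ratio of the 8 members. It was at 978 and 206 CPM in the untreated and treated cells, a log2 ratio of -2.24 or 4.73-fold lower. The log2 ratio was -2.65 among cells with the number 1 in their names and -1.47 among those with the number 2, where those of Jun (-1.74), Fos (-1.64) and Junb (-1.49) were larger in size. A read on Egr1 was found in 46.5% of untreated cells (127 of 273, interval 40.5 to 52.6) and 27.5% of treated cells (69 of 251, 22.1 to 33.5). The intervals do not overlap, which held with a lower share in treated cells for 2.24% and with a higher share for 1.82% of the 4113 genes tested. The level within positive cells was lower too, with medians of 1219 and 518 CPM in positive cells. Egr2 and Egr3 were nearly silent in these cells and did not pass the filter. Egr2 was read in 2 untreated cells (0.733%, 0.0888 to 2.62) and 5 treated cells (1.99%, 0.650 to 4.59), at 0.319 and 3.76 CPM, and 96.4% of its untreated reads came from 1 cell. Egr3 had no read in the 273 untreated cells, which allows a share of up to 1.1% (3 of 273 cells) or, by the exact interval, 1.34%, and was read in 4 treated cells (1.59%, 0.436 to 4.03) at 7.94 CPM, with 79.1% of the reads in 1 cell. For both genes the intervals of the shares overlap.

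The AP-1 subunits were lower in treated cells to different degrees. Jun was at 1048 and 326 CPM in the untreated and treated cells (log2 ratio -1.68, 3.20-fold lower), with reads in 46.9% (40.8 to 53.0) and 21.9% (16.95 to 27.5) of cells. Fos was at 1955 and 720 CPM (-1.44, 2.71-fold lower), with reads in 50.5% (44.5 to 56.6) and 25.9% (20.6 to 31.8) of cells. For Fos the level in positive cells differed little, with medians of 2809 and 2452 CPM, so that the difference lay mostly in how many cells had a read. Junb, the most widely read member, was at 2514 and 1084 CPM (-1.21, 2.32-fold lower), with reads in 86.1% (81.4 to 89.96) and 62.2% (55.8 to 68.2) of cells. Fosb was at 183 and 118 CPM (-0.63, 1.54-fold lower), with reads in 23.4% (18.5 to 28.9) and 12.4% (8.55 to 17.1) of cells. The Fosb level did not keep its direction in each subset of the cells: cell names carry the number 1 or 2 after the flow cell, and the log2 ratio was -1.05 among cells with number 1 and 0.13 among cells with number 2. The intervals of the share of cells did not overlap for any of the 4 AP-1 genes, and nothing is read from this count since the members were chosen on these shares. Jun has an overlapping antisense gene and Junb ends beside Prdx2, and since the strand setting of the counting is not stated, reads of these neighbours may be counted with them.

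Dusp1 had the highest level of the 10 members, 5045 and 2053 CPM in untreated and treated cells (log2 ratio -1.30, 2.46-fold lower), with reads in 72.2% (66.4 to 77.4) and 53.4% (47.0 to 59.7) of cells. Its level in positive cells was lower as well, at medians of 5147 and 3595 CPM. Ier2 was just inside the 2-fold limit, at 1070 and 556 CPM (-0.94, 1.92-fold lower), with reads in 56.0% (49.9 to 62.0) and 42.6% (36.4 to 49) of cells. Nr4a1 was read in few cells of either group, 30 untreated cells (10.99%, 7.54 to 15.3) and 17 treated cells (6.77%, 3.99 to 10.6), at 204 and 117 CPM (-0.81, 1.75-fold lower). Its intervals overlap, and 1 cell gave 20.5% of its reads in untreated and 20.4% in treated cells. Positive cells of both groups held Nr4a1 at a similar level, with medians of 1426 and 1444 CPM.

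Levels of different genes can be compared per kilobase of exon. On this scale, in CPM per exon kb, untreated cells held Dusp1 at 1524, Junb at 1093, Fos at 831, Ier2 at 703, Jun at 329, Egr1 at 218, Nr4a1 at 58.2 and Fosb at 29.3. In treated cells the order was the same but for Ier2 and Fos, which changed places, with Dusp1 at 620, Junb at 471, Ier2 at 366, Fos at 306, Jun at 102, Egr1 at 45.9, Nr4a1 at 33.2 and Fosb at 18.9 CPM per exon kb. With 1 sample per group, the order has no spread over mice. By the share of cells with a read, neighbours whose intervals overlap were Ier2 and Fos, Fos and Jun, and Jun and Egr1 in untreated cells. In treated cells the intervals overlap between each pair of neighbours in the order Junb, Dusp1, Ier2, Egr1, Fos, Jun, Fosb and Nr4a1, except between Ier2 and Egr1.

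The study labels the cells by sub-cluster, and the groups differ in their make-up: untreated cells were 228 of sub-cluster 2, 43 of sub-cluster 4 and 2 of sub-cluster 3, and treated cells were 61 of sub-cluster 2, 133 of sub-cluster 4 and 57 of sub-cluster 5. The labels were themselves made from gene expression. Within sub-cluster 2, the log2 ratio (treated over untreated) was -1.61 for Egr1, -1.47 for Fosb, -1.34 for Jun, -1.23 for Junb, -0.97 for Dusp1, -0.67 for Fos and -0.54 for Ier2. Nr4a1 had the other sign there, at 0.57, with reads in 10.5% of untreated and 14.8% of treated cells of sub-cluster 2. Within sub-cluster 4, all 8 members had a lower level in treated cells, with log2 ratios of -1.82 for Nr4a1, -1.57 for Jun, -1.33 for Egr1, -1.15 for Fos and for Fosb, -1.07 for Junb, -1.03 for Dusp1 and -0.55 for Ier2. The lower levels were thus measured within both sub-clusters that the groups share, except for Nr4a1 in sub-cluster 2, and the ratios of Egr1, Fos, Jun, Ier2 and Dusp1 were smaller in size in both than over all cells, while that of Fosb was larger in both. Sub-cluster 5, seen in treated cells only, had a read on Egr1 in 40.4% of its cells (27.6 to 54.2), against 19.5% (13.2 to 27.3) in treated cells of sub-cluster 4 and 32.8% (21.3 to 46.0) in those of sub-cluster 2. Its interval overlaps that of sub-cluster 2 and lies just above that of sub-cluster 4, whose cells gave fewer genes (median 842 against 967). For each of the other 9 members the intervals of sub-clusters 4 and 5 overlap. Of the 8 members, only Fosb had a higher level in sub-cluster 5 than over all untreated cells, at 253 against 183 CPM. In treated cells of sub-clusters 2 and 4, Fosb was at 65.8 and 76.0 CPM. The sub-cluster 5 level rests on 11 cells with a Fosb read.

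The 11 untreated and 37 treated cells that had a read on a marker of another cell type were also left out. Each of the 8 members was still lower in treated cells, and 7 of them were at least 2-fold lower. The share of all genes past 2-fold was not computed for these cells, so nothing is read from the count. The log2 ratio was then -2.27 for Egr1, -1.92 for Jun, -1.68 for Fos, -1.61 for Nr4a1, -1.42 for Dusp1, -1.25 for Junb, -1.06 for Fosb and -0.94 for Ier2. The ratio of Nr4a1 moved the most.

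The members were also counted cell by cell. Untreated cells had reads on a median of 4 members and treated cells on a median of 2, with at most 8 in either group. At least 3 members were read in 79.1% of untreated cells (216 of 273, 73.8 to 83.8) and in 47.4% of treated cells (119 of 251, 41.1 to 53.8). At the ends of the range, at least 5 members were read in 36.3% of untreated and 12.4% of treated cells, and none in 6 untreated cells (2.20%, 0.811 to 4.72) and 20 treated cells (7.97%, 4.93 to 12.04).

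**Figure D2:**
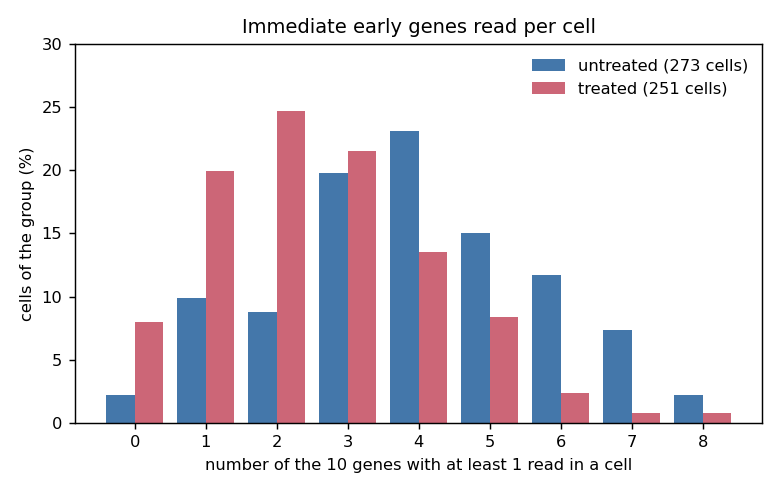
Percent of the SmartSeq2 cells of each group (vertical axis) by how many of the 10 immediate early genes had at least 1 read in the cell (horizontal axis). Untreated cells are most frequent at 4 genes (23.1%) and treated cells at 2 genes (24.7%).

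The number of members read depended on how many genes a cell gave in all, and untreated cells had the higher share in each bin of depth. The members were chosen with their shares of cells known, so these values are a description. When all cells were put into 3 equal bins of genes detected, at least 3 members were read in 69.2% of untreated and 37.1% of treated cells of the lowest bin, 75% and 44.6% in the middle bin, and 91.6% and 62.5% in the highest bin. With each cell thinned to 100000 reads (3 shallower cells left out per group), the shares were 77.0% and 45.2%. Within sub-cluster 2 they were 80.7% (74.97 to 85.6) and 54.1% (40.8 to 66.9), and within sub-cluster 4 they were 69.8% (53.9 to 82.8) and 40.6% (32.2 to 49.5). The intervals do not overlap in either sub-cluster, and the untreated share of sub-cluster 4 rests on 43 cells. Nothing is read from this, given how the members were chosen, and no like share was computed for other genes. Without the cells that carry a marker of another cell type, the shares were 79.4% of 262 and 45.3% of 214 cells.

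How often members were read in the same cells is given as a description, since the members were chosen with their co-detection known. For each of the 28 pairs among the 8 members with enough positive cells, the odds ratio compares the odds of a read on 1 gene between cells with and without a read on the other, and is larger than the ratio of the shares where a gene is read in most cells. The median odds ratio was 2.43 in untreated cells (1.28 to 5.26, above 1 in 28 of 28 pairs) and 1.75 in treated cells (0.876 to 5.34, above 1 in 27 of 28 pairs). Over all pairs of genes read in at least 10% of cells, the median was 1.09 in untreated cells (59.1% of 2290870 pairs above 1) and 1.13 in treated cells (61.3% above 1). The 95th percentiles of these pairs were 2.15 and 2.26, the second above the members' median in treated cells. Members needed a read in only 10 cells, so the 2 sets of pairs are not alike. Nothing is read from the difference. Depth alone raises odds ratios, since a cell with more genes has more of every gene. Within bins of genes detected that were cut for each group on its own, the medians for the members were 2.23 and 1.68. No such value was computed for all pairs. Without cells carrying a marker of another cell type they were 2.46 and 1.52.

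**Figure D3:**
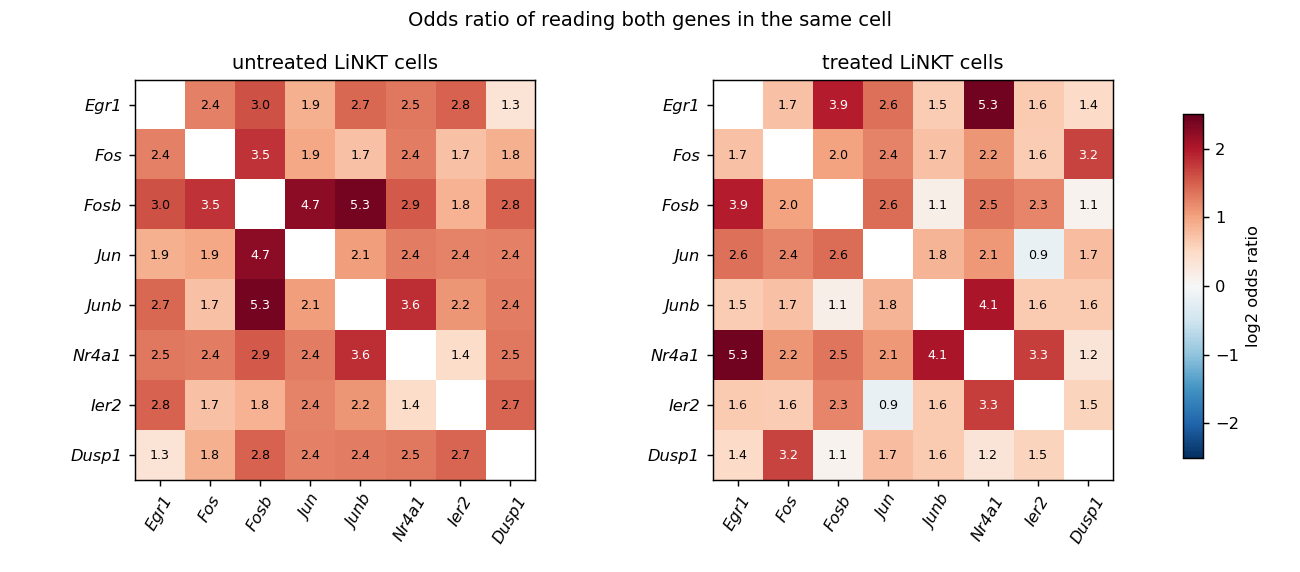
Odds ratios of reading both genes of a pair in the same SmartSeq2 cell, for 273 untreated (left) and 251 treated cells (right); each square prints the odds ratio and its colour gives log2 of it (red above 0, blue below 0). In untreated cells every square is red, with the deepest at Fosb with Junb and Jun; in treated cells the deepest are Egr1 and Junb with Nr4a1, and Jun with Ier2 is below 1.

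In untreated cells the highest odds ratios were 5.26 for Fosb and Junb, 4.73 for Fosb and Jun, 3.57 for Junb and Nr4a1 and 3.52 for Fos and Fosb. Of the 64 untreated cells with Fosb, 62 also had Junb, and 48 had Jun where 30.01 would be met if the genes were read independently. In treated cells the highest were 5.34 for Egr1 and Nr4a1, 4.10 for Junb and Nr4a1 and 3.87 for Egr1 and Fosb. The first rests on 11 cells with both genes, and Fosb with Junb was at 1.104 there, so that the order of the pairs differed between the groups. Jun and Ier2 gave the lowest value in treated cells, 0.876. Cells of a group share their mice, so these ratios are descriptions.

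More members were read in cells with Nr4a1 than in cells without it, with Nr4a1 itself counted. All 30 untreated cells with an Nr4a1 read had at least 3 members, with a mean of 5.93, against 76.5% of those without it, with a mean of 3.69. Of the 17 treated cells with it 15 did, with a mean of 4.94, against 44.4% and a mean of 2.39 without it. Cells with Nr4a1 also gave more genes, with medians of 903 against 852 in untreated and 989 against 839 in treated cells. Among untreated cells, Fosb was read in 43.3% of cells with Nr4a1 and 20.99% of cells without it, and Egr1 in 66.7% and 44.0%. Cd69, an early surface marker of T cell activation, was set beside the members in the same way. In untreated cells at least 3 members were read in 86.3% of 102 cells with Cd69 (78.0 to 92.3) and 74.9% of 171 cells without it (67.7 to 81.2), intervals that overlap, and the cells with Cd69 also gave more genes (median 901 against 849). In treated cells the same shares were 47.9% of 48 cells and 47.3% of 203 cells. Treated cells with a read on Il10, the cytokine of type 1 regulatory T cells, had at least 3 members in 50% of 32 cells (31.9 to 68.1), against 47.0% of 219 cells without Il10 (40.3 to 53.9). For Il21, which encodes another cytokine of these cells, the shares were 61.5% of 26 cells (40.6 to 79.8) and 45.8% of 225 cells (39.1 to 52.5). The intervals overlap for both cytokine genes, neither of which was read in untreated cells.

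Across cells, the genes most like the members were found by the correlation of their detection with the number of members read in the cell, over 273 untreated and 251 treated cells and 1802 genes. Zfp36, which encodes an RNA-binding protein that destabilises AU-rich mRNAs and is itself an early response gene, stood first, with r of 0.36 in untreated and 0.26 in treated cells. Hspa1b, an inducible heat shock gene, came next with 0.17 in both groups. Tmem167, Ddx39b, Eif4a1, Ly9, Rgs2, Tuba1c, Rnps1, Ghitm, Ccr2, Inpp5d, Gm8186 and Ppdpf followed, with a lower r of the 2 groups between 0.12 and 0.14, where the median over all genes was -0.01. All these correlations share the depth of the cells, and correlations this weak in sparse counts set none of those that followed apart.

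Other genes of the early response were taken from a list that includes no member. The lists were chosen with earlier results of these data known. Of all 4113 genes tested, 6.03% were at least 2-fold lower in treated cells and 5.76% at least 2-fold higher. Of 26 further immediate early genes, 14 passed the filter, of which 4 were at least 2-fold lower in treated cells (Klf6, Myc, Csrnp1 and Nr4a3) and 0 at least 2-fold higher, with a median log2 ratio of -0.39. The 5 with most counts were Klf6, a zinc-finger factor, at a log2 ratio of -1.20, Ppp1r15a, a regulator of the stress response of translation, at -0.69, Btg2, which restrains proliferation, at -0.38, Zfp36 at -0.36 and its relative Zfp36l1 at 0.65. Of the genes that passed the filter, Zfp36l1, Gadd45b, Ier5, Mcl1 and Klf10 had a higher CPM in treated cells without reaching 2-fold. Of 17 feedback regulators, 10 passed the filter, with 3 at least 2-fold lower (Tnfaip3, Nfkbiz and Dusp5), 0 higher and a median of -0.66. Tnfaip3, an inhibitor of NF-κB, was at -1.26, the cytokine signal inhibitor Cish at -0.84, the ERK phosphatase Dusp6 at -0.83, the NF-κB inhibitor Nfkbia at -0.49 and the phosphatase Dusp2 at -0.28. At -1.30, Dusp1 had a larger ratio than Dusp2 and Dusp6 and than Dusp5, which was at -1.08.

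Of 22 genes of the pathways upstream, 20 were in the tables (Mkl1 and Mkl2 were not found under these names) and 9 passed the filter, with 1 at least 2-fold higher, 3 lower and a median of -0.54. The shares over all 4113 genes tested, for this and the next 2 lists, were 5.76% higher and 6.03% lower. The kinase gene Map2k1 was at -1.06 and Rasgrp1, a Ras activator of T cells, at -1.30, while Map2k2 was at -0.18 and the calcium-regulated factors Nfatc1 and Nfatc3 were at 0.90 and 1.03. The remaining lower gene was Nfatc2, at -2.31 and named after its value was seen. Of 10 activation markers, 6 passed the filter, with 2 lower (Cd69 at -1.51 and the interleukin-2 receptor gene Il2ra at -1.55) and 3 higher (Pdcd1 at 4.47, and Lag3 and Il10, with 0 counts in untreated cells). Cd69 thus had a lower level in treated cells and the inhibitory receptor genes Pdcd1 and Lag3 a higher one. The median of these 6 genes was 2.70, also with the genes at 0 placed at their bound. Pdcd1, Lag3 and Il10 passed the filter through their reads in treated cells, where they are high. Nothing is therefore read from this median or from the count of higher genes. Of 11 heat shock genes, which rise when cells are stressed by isolation, 10 passed the filter, with 1 lower (Hspd1 at -1.22), 1 higher (Hspa1b at 1.07) and a median of -0.26. Nothing is read from 1 gene in each direction. Those with most counts were Hspa8 at -0.14, Hsp90ab1 at -0.22, Hsp90aa1 at -0.30, Dnaja1 at -0.39 and Dnajb1 at -0.69. The part of cell handling in the members' levels was not tested.

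Near the members, the bisulfite data held 10 DMRs within 50 kb of a gene body, at 5 of the 10 genes. They were 2 at Egr2, 3 at Egr3, 3 at Ier2, 1 at Nr4a1 and 1 at Dusp1, with none at Egr1, Fos, Fosb, Jun and Junb. By the same distance, 12.8% of all 55413 annotated genes and 16.7% of 21938 protein-coding genes had a DMR, and nothing is read from this since the members were chosen with these regions known. Methylation was lower in treated cells at both Egr2 regions and higher at the other 8. Of all 2873 DMRs, 890 (31.0%) were higher in treated cells and 1983 lower, and for the same reason nothing is read from the difference. Some of the 8 lie close to each other or have the start of another gene nearest, as given below. The deposited values are 1 mean per group with a q-value of at most 0.05 from the caller, and read depth is not in the table, so that their precision is unknown. The SD given below is over the CpG cytosines of a region and not over mice. A partly methylated region can be a mix of cells with and without methylation or partial methylation in each cell, which cannot be told apart here.

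Regions near Egr2, Nr4a1 and Ier2 are printed, for their letters or their place near a member, in GRCm38 (mm10) along the plus strand with CpGs in capitals. In the first Egr2 region, capitals also mark the AP-1 letters. The Nr4a1 region is shown by its central 300 bases.
Egr2, chr10:67493687-67493914: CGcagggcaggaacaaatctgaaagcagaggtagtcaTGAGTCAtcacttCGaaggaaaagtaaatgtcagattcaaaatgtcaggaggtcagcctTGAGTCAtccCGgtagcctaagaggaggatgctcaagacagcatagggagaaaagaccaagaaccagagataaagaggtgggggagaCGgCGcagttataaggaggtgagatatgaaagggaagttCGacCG
Nr4a1, chr15:101261333-101261632: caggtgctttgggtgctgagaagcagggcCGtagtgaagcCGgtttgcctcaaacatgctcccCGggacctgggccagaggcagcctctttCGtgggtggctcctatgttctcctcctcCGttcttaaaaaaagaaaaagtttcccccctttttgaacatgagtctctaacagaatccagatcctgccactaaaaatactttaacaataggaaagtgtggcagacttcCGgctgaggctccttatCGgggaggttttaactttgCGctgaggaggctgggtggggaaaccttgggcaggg
Ier2, chr8:84655841-84656111: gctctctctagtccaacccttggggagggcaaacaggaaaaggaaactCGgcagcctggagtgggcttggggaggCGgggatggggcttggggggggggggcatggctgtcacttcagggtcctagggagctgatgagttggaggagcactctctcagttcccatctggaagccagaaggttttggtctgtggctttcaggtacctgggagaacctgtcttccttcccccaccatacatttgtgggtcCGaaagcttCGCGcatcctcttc

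Both Egr2 regions lie far upstream in sequence that overlaps no annotated gene, and Egr2 has the nearest start. The first, chr10:67493687-67493914, is centred 44.1 kb before the start, and its mean methylation was 66.2% in untreated and 17.3% in treated cells, with each of its 14 CpG cytosines lower in treated cells. Over these cytosines the values were 65.1% ± 19.0 and 17.4% ± 9.91 (SD, 14 cytosines). The second, chr10:67497858-67498367, is centred 39.8 kb before the start and was at 71.6% and 21.4%, with all 25 cytosines lower (72.3% ± 15.7 and 21.5% ± 14.8). Egr2 RNA itself was read in 2 untreated and 5 treated cells, so that its level gives little to set beside these regions.

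The first Egr2 region holds the AP-1 letters TGAGTCA 2 times, at chr10:67493724-67493730 and chr10:67493783-67493789. In the central 228 bases of all DMRs at least that long, an AP-1 match (TGANTCA) was present in 24.8% of 1806 regions with lower methylation in treated cells and 3.96% of 808 regions with higher methylation, and 2 or more matches in 3.60% and 0%. Windows of the same length 5 kb to either side held a match in 6.48% and 6.53% for the first kind and 7.05% and 7.55% for the second. The first Egr2 region was thus among the few with 2 matches, and 8 other regions near members had none in the stretch of up to 300 bases searched, while the Egr3 region with untranslated bases was not searched. The letters say nothing about which AP-1 factor, if any, was bound.

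At Egr3, 2 of the 3 regions lie in the gene itself, in its last exon. The first, wholly coding, was at 43.3% in untreated and 75.7% in treated cells (43.1% ± 17.9 and 75.9% ± 18.6 over 77 cytosines, 76 of them higher in treated cells). The second, with 144 coding and 341 untranslated bases, was at 66.7% and 86.01% (66.7% ± 20.5 and 87.3% ± 17.2 over 72 cytosines, 71 higher). Both thus had more methylation in treated cells within the transcribed part of the gene. The last, chr14:70130927-70131260, lies 53.8 kb after the start inside Bin3, with Ccar2 as the nearest start at 22.7 kb, and was at 39.0% and 70.6%. Egr3 had 0 reads in untreated cells and reads in 4 treated cells.

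At Nr4a1, the region chr15:101261208-101261758 is centred 5.36 kb before the main start, in an intron of a longer annotated transcript, and was at 36.9% in untreated and 72.1% in treated cells (37.8% ± 10.98 and 72.1% ± 8.93 over 24 cytosines, all higher). At Ier2, the nearest region, chr8:84655841-84656111, lies 6.88 kb after the start in no annotated gene, and was at 12.8% and 46.8% (15.9% ± 7.96 and 51.6% ± 18.2 over 12 cytosines, all higher). This was the lowest region mean of the 10 in untreated cells, though the mean over cytosines was lower, at 15.3%, in the Ier2 region chr8:84699937-84700203. The other Ier2 regions, chr8:84699937-84700203 at 17.1% and 60.4% and chr8:84702805-84703178 at 21.8% and 63.0%, lie in Nfix and in Lyl1 and Nfix, within 1.53 kb of the start of Lyl1, so that Ier2 is not the nearest gene. The Dusp1 region, chr17:26593905-26594672, at 26.0% and 65.9%, lies in Ergic1 and 85.8 kb from the main Dusp1 start, and counts only because an annotated long Dusp1 transcript reaches towards it. Of the 10 regions, 6 thus have a member as the gene with the nearest start, namely both Egr2 regions, 2 of Egr3, that of Nr4a1 and 1 of Ier2. Just outside the 50 kb, a region 55.4 kb from Fos was at 14.6% and 42.3%, and another 78.4 kb from Nr4a1 at 25.2% and 57.0%.

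The chromatin fragments of both groups were deposited as 1 file, whose barcodes end in 1 or 2. Nothing in the labels ties an ending to a group, so the endings were compared as 2 libraries with no direction of treatment. There were 8565 barcodes with at least 1000 fragments with ending 1 and 7237 with ending 2, with medians of 7104 and 8591 fragments, and 100 barcode sequences of 16 bases occurred with both endings (1.17% and 1.38%). Doublets were not called or removed here. Each end of a fragment marks an insertion of the transposase into open DNA.

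The promoters of the members (1 kb on either side of the start) were open in both libraries and differed little between them. Past 1.5-fold between the endings were 0 of the 10 promoters, where 13.5% of 14972 protein-coding promoters were, and since the members were chosen with these values known, nothing is read from the difference. Per 1000000 ends of a library (ends per M below), Jun had with ending 1 and ending 2 135 and 107, Dusp1 121 and 120, Junb 104 and 96.3, Egr2 98.05 and 100.9, and Fos 90.7 and 91.5. Fosb had 69.0 and 66.5, Ier2 61.4 and 61.9, Egr1 55.2 and 64.1, Nr4a1 48.1 and 62.4 and Egr3 26.9 and 30.7 ends per M. The largest difference was that of Nr4a1, 1.30-fold higher with ending 2, followed by Jun, whose ratio of ending 2 to ending 1 was 0.793. The median over all promoters was 4.63 ends per M, and by both endings together Jun ranked 128 and Dusp1 136 of 21938 promoters, while Egr3 was at the 70.6th percentile.

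**Figure D4:**
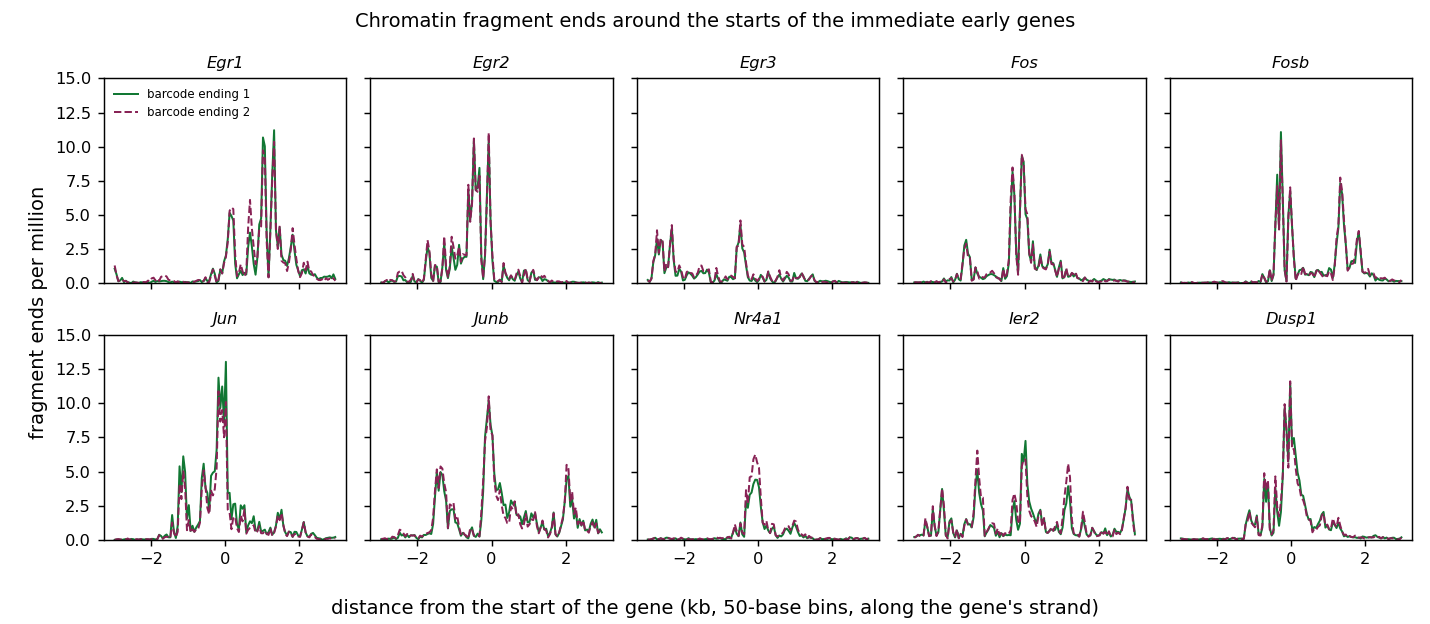
Fragment ends per M in bins of 50 bases (vertical axis) against the distance in kb from each gene's start along its strand (horizontal axis), for barcode ending 1 (green, solid) and ending 2 (purple, dashed). The lines of both endings have like shapes for each gene and differ in height in places, among them Jun (ending 1 higher) and Nr4a1, a part of Egr1 and a part of Ier2 (ending 2 higher), and Egr1 has its highest bin downstream of the annotated start.

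The order of the members by promoter ends, within 1 kb of the annotated start, was not their order by RNA. Ends further out do not count in this order. The highest bin of Egr1 was centred 1325 bases after its start, at 11.2 and 10.4 ends per M with ending 1 and 2. Fosb and Egr3 also had open stretches outside the window. The Egr2 promoter had nearly as many ends as that of Junb and more than that of Fos, while Egr2 was read in 2 untreated and 5 treated cells and Junb in 235 and 156. At least 1 end fell on the Egr2 promoter in 51.2% of barcodes with ending 1 (50.1 to 52.3) and 55.7% with ending 2 (54.6 to 56.9), on the Junb promoter in 52.8% and 55.2%, and on the Egr3 promoter in 20.8% and 25.1%. At least 3 member promoters had an end in 73.2% of barcodes with ending 1 (72.3 to 74.2) and 77.4% with ending 2 (76.4 to 78.3), where the second library had more fragments per barcode.

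The ratio of ending 2 to ending 1 ran from 0.793 to 1.30 over the member promoters, and from 0.338 to 7.02 over the 10 DMRs near members, some of which had few ends. The first Egr2 region had 31 ends with ending 1 and 200 with ending 2, or 0.835 and 5.86 ends per M per kb, 7.02-fold higher with ending 2, and the second 202 and 639 ends, 3.44-fold higher. An end was found in 0.257% of barcodes with ending 1 (0.161 to 0.389) and 1.92% with ending 2 (1.62 to 2.26) at the first Egr2 region. At the other 8 regions the ratio was below 1, from 0.338 at the Dusp1 region in Ergic1 (2232 and 694 ends) to 0.865 at the Nr4a1 region (254 and 202 ends). The Dusp1 region had an end in 12.4% of barcodes with ending 1 (11.7 to 13.1) and 4.86% with ending 2 (4.38 to 5.38). At the remaining 7 regions these intervals overlap, and the differences were not tested. No like ratio or share was computed over all DMRs, and the libraries differ in fragments per barcode. The members were chosen with these ends known, so nothing is read from how many intervals overlap. Which library came from which mice is not known from the labels, so these ratios give a difference between libraries and no direction of treatment.

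Of the windows of 500 bases within 50 kb of a member, promoters included, 578 had at least 200 ends, and 99 of them (17.1%) were past 1.5-fold between the endings, where 23.7% of 161059 such windows of all chromosomes were. The 5 with most ends outside promoters were alike in both. They lay 20.3 kb before the start of Nr4a1 (60.5 and 61.2 ends per M with ending 1 and 2), 18.8 and 18.3 kb before that of Fos (48.7 and 50.7, then 40.1 and 40.6), 12.2 kb after that of Fos (39.9 and 42.8) and 7.52 kb before that of Junb, where Hook2 has the nearer start (48.95 and 43.5). The promoter of Nr4a1, 1 kb on either side of the start and so longer than this window of 500 bases, had 48.1 and 62.4 ends per M. Of the 5 windows with the largest ratio, the one 44.1 kb before Egr2 overlaps the first Egr2 DMR and had 0.319 and 2.04 ends per M, 6.38-fold higher with ending 2. The other 4 fall in the long Dusp1 span or in Ergic1, where Ergic1 has the nearest start. In the Dusp1 span, windows 42.8 and 44.8 kb before the main start were 7.24-fold and 5.06-fold higher with ending 2. In Ergic1, windows 70.3 and 69.8 kb before it were 4.62-fold and 4.39-fold higher with ending 1.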

How the data were processed

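LiNKT cells from NOD mice, left untreated or given αGalCer/CD1d-NPs, were measured by SmartSeq2, whole genome bisulfite sequencing and single-nucleus chromatin sequencing, with 1 sample per group in each of the deposited tables (replicates of the bisulfite sequencing are merged there), so that no test between groups was made. The SmartSeq2 count values are those deposited by the authors, who aligned reads with STAR to GRCm38 and counted them per gene and cell; the strand setting is not stated. The DMR table deposited by the authors gives a q-value from metilene, the mean methylation fraction of each group and a CpG number that includes each strand, after mapping to mm10 with BSMAP; its column with the authors' own difference of the groups was not used. The site table deposited by the authors gives the methylated fraction of each cytosine per group, rounded, without read depth. The chromatin count values deposited by the authors are fragments from Cell Ranger ARC with both groups in 1 file. All measured columns used were mapped to samples (0 unmapped).

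Counts were summed over cells, scaled to CPM and compared as log2 ratios with a prior of 1 CPM, for genes that reached 10 summed counts and were read in at least 5% of cells. Odds ratios had 0.5 added to each count. Genes followed GENCODE M21 (55141 of 55401 identifiers matched). Counts that name no gene (0.00454% and 0.00248%) stayed out. Cells at 0 reads leave room for 3 counts or cells. The members and lists were chosen with earlier results of these data known. Named genes are the members, up to 5 genes of each list by summed counts, the 15 genes most like the members (1 of them is not reported here), the genes nearest to each DMR and 10 chromatin windows; Myc, Csrnp1, Nr4a3, Gadd45b, Ier5, Nfkbiz, Dusp5, Nfatc2, Hspd1 and Il2ra were named after their values were seen. Other samples of the series were not analysed here. Alternatives are given in the closing section. Scripts (Python 3.11.15, numpy 2.4.6, pandas 2.3.3, scipy 1.17.1, pysam 0.24.0, samtools 1.23.1, pyarrow 21.0.0, matplotlib 3.10.9) were tested on simulated data.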

Additional observations from a re-analysis of the deposited data

How the results depend on the processing

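Between 4 and 7 members were at least 2-fold lower in treated cells over the 13 alternatives tried (5 as reported), and with no filter on low values Egr2 and Egr3 were at least 2-fold higher, where 0 tested members were as reported. The share of all genes past 2-fold was not computed for these alternatives, so nothing is read from the range. Between the barcode endings, 0 promoters of members passed 1.5-fold under any of 6. The median odds ratio ran from 2.06 to 2.54 in untreated and from 1.498 to 1.92 in treated cells. The share of cells with at least 3 members left the interval of the value over all cells in sub-cluster 2 of the treated cells (54.1%) and in sub-cluster 4 (69.8% of untreated and 40.6% of treated cells), though the interval of each of these subsets holds the value over all cells. These subsets, the cells without markers of other cell types and the barcodes not shared between endings were added after seeing the data. The log2 ratio changed sign for Fosb among cells with number 2 in their names (0.13) and for Nr4a1 in sub-cluster 2 (0.57), and over all deposited cells it was -0.44 for Nr4a1. Of the 10 DMRs within 50 kb, 4 lay within 25 kb of a gene body (at Egr3, Ier2 and Nr4a1). By the deposited number, which counts the CpG cytosines of both strands, 4 had at least 20 (at Egr2, Egr3 and Nr4a1). Up to 100 kb there were 12, with 1 more at Fos and 1 at Nr4a1. In all, 239 recomputed values stayed within their counting interval or 1.5 times their count, 77 moved by more than that, and 2 changed sign. Among the log2 ratios of the members, 48 stayed, 70 moved and 2 changed sign. Their counting error is that of reads, so that small shifts count as moved. That of Egr1 from -2.24 to -2.19, with a prior of 10 CPM, is 1 of them. Of the values that stayed, 138 were shares of cells with a read on a member. No paired analysis was possible because each group is 1 sample and the labels give no replicate numbers. With unseparated mice, amplified reads and methylation without depth, none of these intervals covers the spread between animals, and a share of 0 cells allows up to 1.1% in untreated and 1.2% in treated cells at 3 cells, or 1.34% and 1.46% by the exact interval.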

Other observations

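Further values on the members belong to no comparison above. Among untreated cells with a read on Egr1, at least 3 members were read in 93.7% of 127 cells (87.97 to 97.2), against 66.4% of 146 cells without it (58.2 to 74.0), and for Fos the shares were 95.7% of 138 cells and 62.2% of 135 cells. In treated cells the shares were 85.5% of 69 and 33.0% of 182 cells for Egr1, and 84.6% of 65 and 34.4% of 186 cells for Fos. The gene that splits the cells is counted among the members in each of these shares.

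Cells whose names carry number 1 and number 2 differed in the genes they gave, with medians of 828.5 and 964 genes in untreated and 822 and 917.5 genes in treated cells. At least 3 members were read in 77.7% of 184 and 82.0% of 89 untreated cells, and in 46.2% of 173 and 50% of 78 treated cells, so that untreated cells were higher within both numbers.

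In 2856 of the 2873 DMRs the difference of the groups had the same sign in the site table as in the region table, and in 17 it did not, over cytosines of all contexts.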
